A study of Mus musculus with 246 samples.

Results

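The ventral hippocampus (vHipp) of adult male offspring raised under early life adversity (ELA) by dams treated with the FKBP51 inhibitor SAFit2 was compared with that of control offspring of vehicle-treated dams. All vHipp libraries of the conditions ELA_SAFit2 (14 mice) and Ctrl_Vehicle (13 mice) were taken, in both collection sets, so that 27 of the 246 libraries of the series entered the comparison. Of 15388 protein-coding genes tested, Trub1 and Fhip2a were higher and Cmya5 was lower in ELA_SAFit2, with an adjusted p under 0.05 in edgeR's quasi-likelihood test. Trub1, the gene of a pseudouridine synthase that modifies tRNA, was 30.4% higher and Fhip2a, a member of the FHF complex family, was 11.8% higher. Cmya5, the gene of the large scaffold protein myospryn that is best known from muscle, was 26.5% lower. The calls of Fhip2a and Cmya5 were lost in some alternative fits that kept all 27 mice, given below.

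FKBP51, encoded by Fkbp5, is a co-chaperone of HSP90 that lowers the affinity of the glucocorticoid receptor for its hormone, and Fkbp5 is itself induced by that receptor, which closes a short negative feedback loop. SAFit2 binds FKBP51 selectively over its close relative FKBP52, encoded by Fkbp4. The ventral hippocampus is rich in glucocorticoid and mineralocorticoid receptors, projects to the amygdala, the prefrontal cortex and the hypothalamus, and is known for its part in anxiety and in restraint of the stress axis.

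The mice were outbred CD1 males, so individual animals differ in genotype. ELA litters were kept with limited bedding and nesting material in the early postnatal period. ELA_SAFit2 dams received SAFit2 in a slow-release phospholipid gel, given once under the skin when the adversity began, and Ctrl_Vehicle dams, kept with standard bedding, received the empty gel. Pups took up the inhibitor through the milk. Adversity and SAFit2 thus differ together between these conditions, and their shares in a difference cannot be told apart here. Another condition, ELA_Vehicle (14 mice), had adversity with the empty gel. The NoInteraction set holds 7 mice of each condition, and the SocialInteraction set holds 6 Ctrl_Vehicle, 7 ELA_Vehicle and 7 ELA_SAFit2 mice that met an unfamiliar mouse for 10 minutes before collection. Whole litters were assigned to a condition and the labels do not tie mice to litters. Conditions were mixed within cages from weaning, and the labels do not give the cage. Hence a litter effect and the condition cannot be told apart, and p-values measure the spread between mice only.

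Total counts lay between 23719043 and 33099402 in Ctrl_Vehicle and between 23021370 and 31018919 in ELA_SAFit2. All 41 vHipp libraries matched their own mouse over 60 genes that vary between individuals. Markers of the dentate gyrus, of CA3 and CA2 and of the ventral pole were detected in all conditions. Those of CA1, the dorsal pole and the neighbouring cortex, amygdala and thalamus were detected as well, with levels given below. Detection therefore does not show that the punches held ventral hippocampus only. No library of the 27 stood apart over all genes (median correlation with the others 0.985 to 0.989). The share of mitochondrial counts was 5.195% to 7.73% (median 6.55%) in Ctrl_Vehicle and 4.99% to 7.40% (median 6.003%) in ELA_SAFit2.

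Differences between the conditions were few and small. The 3 genes called are 0.0195% of those tested, 2 of them higher (0.013%) and 1 lower (0.0065%). At an unadjusted p under 0.05 there were 817 genes (5.31%), 403 higher (2.62%) and 414 lower (2.69%). The median difference over all genes was 0.0011 on the log2 scale and the median SE was 0.052. For 13532 genes (87.9%) the 95% interval of the difference lay within ±0.5 on the log2 scale, so a larger change of these genes was outside the interval. In simulated counts with the same libraries and 200 genes changed at once, the test recovered 70.5% of genes changed by 0.25. It recovered 91.5% of those changed by 0.5. The adjusted threshold is stricter when fewer genes change, and neither fewer changed genes nor changes in scarcer genes were simulated. These shares therefore do not give the power of a comparison with 3 calls.

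**Figure D1:**
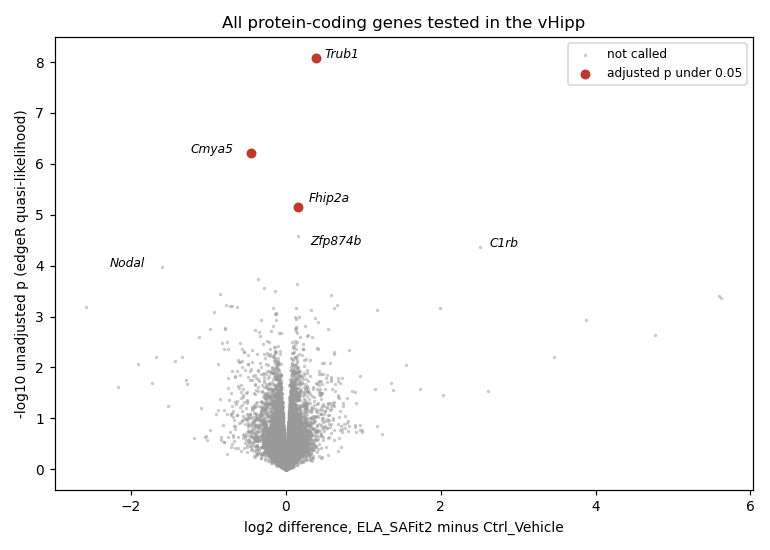
Log2 difference of ELA_SAFit2 minus Ctrl_Vehicle (x axis) against the negative log10 of the unadjusted p (y axis) for the 15388 protein-coding genes tested in the vHipp. The 3 genes with an adjusted p under 0.05 are red, and Trub1, at a log2 difference of 0.38, stands highest.

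Trub1 had the smallest p of all genes. Its level was 16.6 to 22.6 CPM (TMM-normalized counts scaled to library size, median 20.4) in the 13 Ctrl_Vehicle mice and 22.1 to 31.5 CPM (median 26.0) in the 14 ELA_SAFit2 mice. Of the ELA_SAFit2 mice, 13 lay above every Ctrl_Vehicle mouse, and the groups overlapped only through ELA_SAFit2 mouse 71, at 22.1 CPM. Genes with at least 12 of 14 ELA_SAFit2 libraries above every Ctrl_Vehicle library numbered 2 of 15388 (0.013%), Trub1 and Fhip2a. The log2 difference of Trub1 was 0.38 (SE 0.047, 95% interval 0.29 to 0.48, edgeR adjusted p = 0.000127). The gene (ENSMUSG00000025086.14) lies at chr19:57452912-57491005 on the plus strand of GRCm38.

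Fhip2a, listed as Fam160b1 in older annotation, lies 63326 bp before Trub1 on the same strand (ENSMUSG00000033478.6, chr19:57360680-57389586, GRCm38). Its product belongs to a family that links membrane cargo to the dynein motor. Fhip2a was at 35.2 to 41.1 CPM (median 38.5) in Ctrl_Vehicle and at 40.5 to 48.0 CPM (median 43.3) in ELA_SAFit2. The ranges overlapped narrowly, with 12 of 14 ELA_SAFit2 mice above every Ctrl_Vehicle mouse. The log2 difference was 0.16 (SE 0.029, 95% interval 0.10 to 0.22, edgeR adjusted p = 0.0359). This call was lost with any 1 of 16 libraries left out, where the difference was between 0.15 and 0.17 and the adjusted p at most 0.0856, without a filter on low counts, at an adjusted p of 0.053, and with all 41 libraries in the fit, at an adjusted p of 0.112.

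The surroundings of these genes on chromosome 19 were then listed within 500000 bp of each called gene, a window chosen after the called genes were known. With all gene types tested, 5 of 19637 genes were called (0.0255%), and the additional genes were B230217O12Rik and Gm43444. B230217O12Rik lies here. It is a long non-coding RNA gene (chr19:57323193-57360775, minus strand, GRCm38) that overlaps the start of Fhip2a on the opposite strand. Its level was 2.01 to 3.39 CPM (median 2.63) in Ctrl_Vehicle and 2.04 to 8.72 CPM (median 5.15) in ELA_SAFit2. Of the ELA_SAFit2 mice, 13 of 14 lay above every Ctrl_Vehicle mouse, and the exception was mouse 71. The share of genes of all types with such a separation was not counted. Its log2 difference of 0.99 (SE 0.14, edgeR adjusted p = 0.000733 over all gene types) was larger than those of Fhip2a and Trub1. The library kit keeps the strand, but whether the counting used it is not given in the sources used here, so reads at the overlap of B230217O12Rik and Fhip2a may be assigned to either.

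Ablim1, an actin-binding gene on the far side of B230217O12Rik, had a log2 difference of 0.015 (SE 0.027, unadjusted p = 0.581), and Atrnl1, the next protein-coding gene after Trub1, had one of -0.025 (SE 0.029, unadjusted p = 0.398). Their errors are as small as that of Fhip2a. Farther from Trub1, Tdrd1 had a log2 difference of 0.48 (SE 0.18, unadjusted p = 0.0128) and Afap1l2 one of -0.12 (SE 0.052, unadjusted p = 0.0268), neither of them called. Gm43444, an unclassified transcript on chromosome 3 (chr3:121020486-121020776, GRCm38), was at 0 to 0.747 CPM (median 0.184) in Ctrl_Vehicle and at 0 to 0.0813 CPM (median 0.0163) in ELA_SAFit2, with 2 of 13 and 7 of 14 mice at 0 (edgeR adjusted p = 0.0359 over all gene types).

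The 250 bases before the RefSeq start of Trub1 and of Cmya5 (GRCm38.p6) are shown because these are the 2 genes whose calls held with each of the 27 libraries left out in turn. They were searched for the glucocorticoid half-site AGAACA and for the whole glucocorticoid response element, in which 2 such half-sites face each other 3 bases apart, since FKBP51 acts on the glucocorticoid receptor, and for 3 common promoter motifs, all on both strands. These were the CCAAT box, the GC box with the letters GGGCGG, and the cyclic AMP response element with the letters TGACGTCA. Capitals mark matches to the CCAAT box and the GC box on either strand. Trub1 occupies chr19:57452656-57452905 on the plus strand, and Cmya5 chr13:93144725-93144974 on the minus strand.
Trub1: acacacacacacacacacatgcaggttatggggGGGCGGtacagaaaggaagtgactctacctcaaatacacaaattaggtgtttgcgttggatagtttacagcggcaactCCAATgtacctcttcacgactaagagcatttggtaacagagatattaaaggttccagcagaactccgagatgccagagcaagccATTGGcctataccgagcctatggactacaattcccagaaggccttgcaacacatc
Cmya5: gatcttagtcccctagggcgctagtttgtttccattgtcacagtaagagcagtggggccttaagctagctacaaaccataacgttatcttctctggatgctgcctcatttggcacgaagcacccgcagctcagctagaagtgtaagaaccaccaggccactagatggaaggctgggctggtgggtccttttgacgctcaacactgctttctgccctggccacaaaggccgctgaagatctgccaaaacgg
Trub1 held 2 matches to the CCAAT box, a motif in 33.8% of 32851 windows of this kind, and 1 match to the GC box, in 32.7% of them. Cmya5 held neither. The half-site AGAACA, in 16.1% of the windows, the whole element (0.00913%) and the cyclic AMP response element (1.55%) had no match in either window, which says only that these letters are not in these 250 bases.

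Cmya5 (ENSMUSG00000047419.6, chr13:93040713-93144724, minus strand, GRCm38) was at 6.38 to 10.8 CPM (median 7.90) in Ctrl_Vehicle and at 4.95 to 7.12 CPM (median 5.93) in ELA_SAFit2. Of the ELA_SAFit2 mice, 10 of 14 lay below every Ctrl_Vehicle mouse, which 3 of the 15388 genes reached (0.0195%). The log2 difference was -0.44 (SE 0.069, 95% interval -0.59 to -0.30, edgeR adjusted p = 0.00463). With all 41 libraries in the fit this call was lost, at a log2 difference of -0.45 and an adjusted p of 0.112. The call of Cmya5 was also lost with runs of 8 mouse numbers as a block (edgeR adjusted p = 0.132), a fit described in the closing section. Among the 6 other protein-coding genes tested within 500000 bp, none was called. Tent2, whose gene lies 1558 bp from that of Cmya5, had a log2 difference of -0.045 (SE 0.028, unadjusted p = 0.116). The gene of the matrix protein thrombospondin 4, Thbs4, had one of -0.79 (SE 0.26, unadjusted p = 0.00425).

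**Figure D2:**
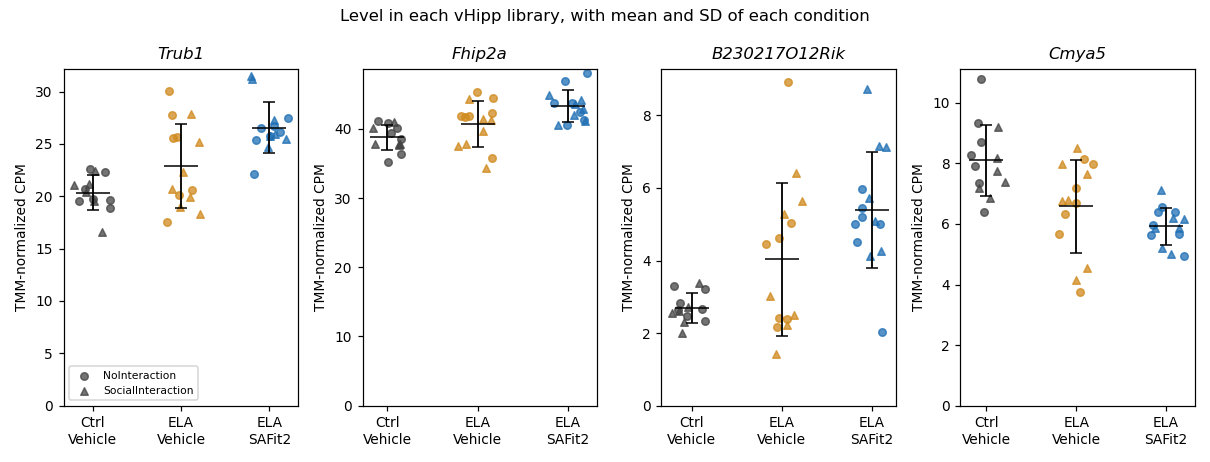
TMM-normalized CPM (y axis) of Trub1, Fhip2a, B230217O12Rik and Cmya5 in every vHipp library of the 3 conditions, with circles for NoInteraction and triangles for SocialInteraction, and with the mean and SD of each condition over 13 or 14 mice. ELA_SAFit2 mice sit above Ctrl_Vehicle mice for the first 3 genes with few exceptions and mostly below them for Cmya5, and ELA_Vehicle mice spread over both ranges.

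The next 9 genes by p were not called by edgeR, with adjusted p-values between 0.0990 and 0.438. DESeq2 called 3 of them, for 6 calls in all (0.039% of the genes). These were Zfp874b, a zinc finger gene, C1rb, a complement protease gene, and Nodal, a morphogen of the embryo. Zfp874b was at 12.2 to 14.2 CPM in Ctrl_Vehicle and at 13.7 to 16.1 CPM in ELA_SAFit2, a log2 difference of 0.16 (SE 0.032). C1rb was close to the limit of detection, at 0 to 0.203 CPM (median 0.0449) in Ctrl_Vehicle and at 0 to 1.10 CPM (median 0.490) in ELA_SAFit2, with a log2 difference of 2.51 (SE 0.52). Nodal was likewise scarce, at 0.159 to 0.549 CPM in Ctrl_Vehicle and at 0 to 0.330 CPM in ELA_SAFit2, with a log2 difference of -1.60 (SE 0.36). Zfp874b and C1rb have near-identical relatives in the genome, so their counts may be split between copies.

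Of the other 6, Samd8 and Nudt6 had positive differences. Samd8, a gene of sphingolipid synthesis, was at a median of 111.1 CPM in Ctrl_Vehicle and 125.5 CPM in ELA_SAFit2 (log2 0.15, SE 0.035). Nudt6, a Nudix hydrolase gene that overlaps Fgf2 on the opposite strand and may share reads with it, was at medians of 1.06 and 1.499 CPM (log2 0.58, SE 0.14). Rbpms2, an RNA-binding protein gene, Tmem68, an acyltransferase gene, Ift22, a gene of intraflagellar transport, and Ces5a, a carboxylesterase gene, had log2 differences of -0.37, -0.29, -0.14 and -0.85. None of these was called by either tool.

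The same contrast was taken in 5 other regions of the same 27 mice. Regions share the mice, so they do not add animals. Trub1 was called in the prefrontal cortex (PFC, 3 genes called, 0.0194%), the anterior cingulate cortex (ACC, 1, 0.00649%), the basolateral amygdala (BLA, 2, 0.0128%) and the dorsomedial thalamus (DMT, 2, 0.0129%). Its log2 difference was 0.42 (SE 0.052) in the PFC, 0.39 (SE 0.055) in the ACC, 0.43 (SE 0.050) in the BLA and 0.30 (SE 0.037) in the DMT. In the nucleus accumbens (Nacc), with no gene called and 475 (3.06%) at an unadjusted p under 0.05, it was 0.30 (SE 0.075, unadjusted p = 0.000488). In the Nacc 12 of 41 libraries, 8 of them among these 27, matched another mouse than the labelled one, and they were kept as labelled. B230217O12Rik was also called in 4 of the regions, by 0.89 on the log2 scale in the ACC, 1.07 (BLA), 1.09 (DMT) and 1.12 (PFC). Its value of 0.75 in the Nacc was not called (unadjusted p = 1.58e-05). Gm43444 was called with a negative difference in the ACC (edgeR adjusted p = 0.00696), the BLA (0.00067) and the DMT (0.0118), and not in the PFC or the Nacc.

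Fhip2a and Cmya5 were called in none of the other regions. The log2 difference of Fhip2a was 0.091 in the PFC and the BLA, 0.11 in the ACC, 0.044 in the DMT and 0.036 in the Nacc. That of Cmya5 was -0.26 in the PFC, -0.20 in the ACC, -0.21 in the BLA, -0.11 in the Nacc and -0.44 in the DMT, where its SE of 0.17 was larger than in the vHipp. Of the genes called elsewhere, Bbs2, a gene of the primary cilium called in the PFC and the BLA, had a log2 difference of 0.13 (SE 0.046, unadjusted p = 0.00854) in the vHipp. Cox5a, a subunit of cytochrome c oxidase called in the PFC, had one of -0.019 (SE 0.058). Opn4, the gene of melanopsin called in the DMT, did not pass the filter on low counts in the vHipp.

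**Figure D3:**
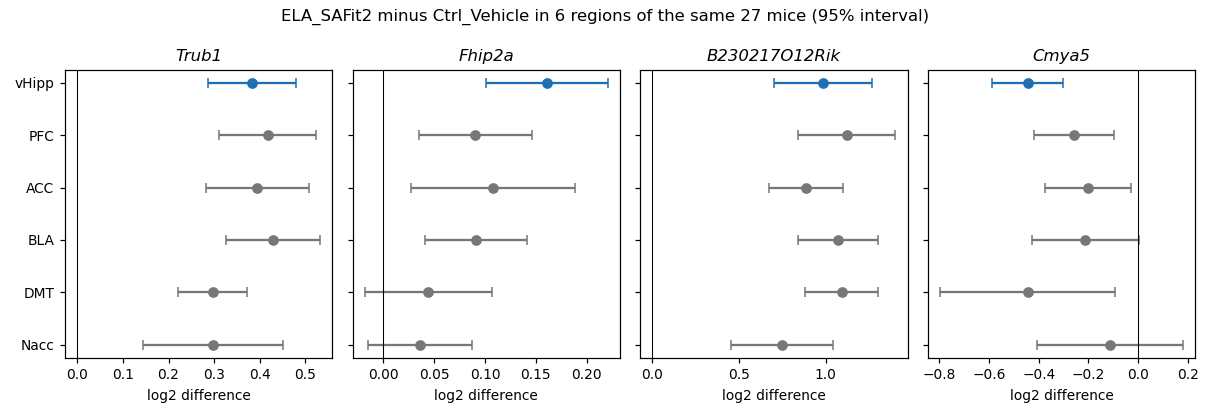
Log2 difference of ELA_SAFit2 minus Ctrl_Vehicle (x axis) with its 95% interval in the vHipp (blue) and 5 other regions (grey) of the same 27 mice, as labelled, for Trub1, Fhip2a, B230217O12Rik and Cmya5. In the Nacc 8 of these 27 libraries matched another mouse than the labelled one. Trub1 and B230217O12Rik have intervals above 0 in all 6 regions, whereas those of Fhip2a include 0 in the DMT and the Nacc.

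Whether the contrast differs between the vHipp and the other regions was tested on the difference, within each mouse, between the vHipp and the mean of PFC, ACC, BLA and DMT. No gene was called by limma, with 767 genes (4.98%) at an unadjusted p under 0.05. For Trub1 the vHipp exceeded the other regions by 0.0045 on the log2 scale (95% interval -0.075 to 0.084), so a regional excess of over 0.084 was outside the interval. For Fhip2a this value was 0.076 (95% interval 0.0066 to 0.15, limma adjusted p = 0.909) and for Cmya5 -0.15 (95% interval -0.31 to 0.0071, limma adjusted p = 0.909). Zfp874b had the smallest p, with a value of 0.17 (95% interval 0.10 to 0.23, limma adjusted p = 0.354), and its log2 differences in the 5 other regions lay between -0.014 and 0.012. It was followed by Atp6v0a4 (0.93), Adamts14 (0.55), Tmem94 (-0.14) and Zfp831 (-0.20), all with limma adjusted p-values over the threshold.

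The contrast was also compared between the sets, since 1 set met an unfamiliar mouse before collection. No gene differed between the sets by edgeR (smallest adjusted p = 0.974, 728 genes or 4.73% at an unadjusted p under 0.05). The log2 difference of Trub1 was 0.33 (95% interval 0.20 to 0.46) without interaction and 0.44 (0.30 to 0.58) after it. Fhip2a had 0.18 (0.093 to 0.26) and 0.14 (0.056 to 0.23), and Cmya5 -0.49 (-0.69 to -0.30) and -0.39 (-0.60 to -0.18). B230217O12Rik had 0.77 (SE 0.18) and 1.22 (SE 0.19). In this fit of both sets together Trub1 (edgeR adjusted p = 0.00943) and B230217O12Rik (0.00825 over all gene types) passed the threshold after interaction and not without it. The difference between the sets was not called for Trub1 (unadjusted p = 0.252) and was not tested for B230217O12Rik. In the SocialInteraction set the Trub1 levels of the 2 conditions did not overlap, and all 7 ELA_SAFit2 mice lay above the 6 Ctrl_Vehicle mice. The same held for Zfp874b and Pbld2 in this set. These genes were named by a small p from the same libraries, so the separation is no separate support. The share of all genes with such a separation was not counted. The 5 genes with the smallest p for a difference between the sets were Rxfp2, Pbld2, Col4a3, Tgfbr2 and Car3, with opposite signs in the sets. Rxfp2, a relaxin-family peptide receptor gene, for example had log2 differences of 1.57 without and -1.47 after interaction. DESeq2 called 5 of the 15388 genes for this difference, and which genes these were is not given here.

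**Figure D4:**
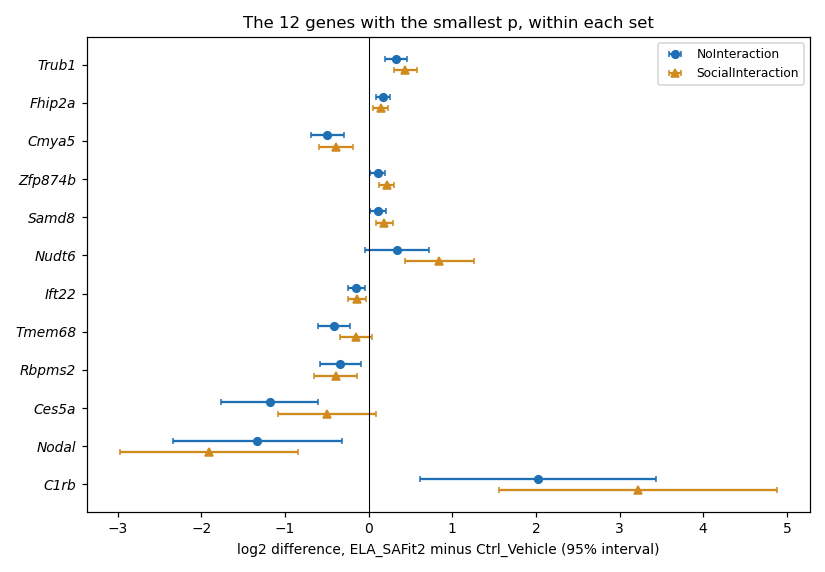
Log2 difference of ELA_SAFit2 minus Ctrl_Vehicle (x axis) with its 95% interval within NoInteraction (blue circles) and SocialInteraction (orange triangles) for the 12 genes with the smallest p over both sets. All 12 have the same sign in both sets, and the p of the combined fit chose them.

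ELA_Vehicle mice show where adversity without the inhibitor lay for these genes. Since ELA_Vehicle is compared with the same Ctrl_Vehicle and ELA_SAFit2 libraries, the values are given side by side only. No gene of 15722 was called by edgeR for ELA_Vehicle against Ctrl_Vehicle, with 1040 genes (6.61%) at an unadjusted p under 0.05. DESeq2 called 2 of the 15722 genes, and which genes these were is not given here. For ELA_SAFit2 against ELA_Vehicle neither tool called a gene, with 831 genes (5.29%) at an unadjusted p under 0.05 by edgeR. Trub1 was at 17.5 to 30.1 CPM (median 21.5) in ELA_Vehicle, with 6 of 14 mice above every Ctrl_Vehicle mouse and 7 of 14 below every ELA_SAFit2 mouse. Its log2 difference was 0.17 (SE 0.068) for ELA_Vehicle minus Ctrl_Vehicle and 0.21 (SE 0.066) for ELA_SAFit2 minus ELA_Vehicle. Fhip2a had 0.071 (SE 0.034) and 0.090 (SE 0.034), B230217O12Rik 0.59 (SE 0.20) and 0.41 (SE 0.19), and Cmya5 -0.29 (SE 0.096) and -0.15 (SE 0.096). The SD of Trub1 was 4.04 CPM in ELA_Vehicle, against 1.65 CPM in Ctrl_Vehicle and 2.40 CPM in ELA_SAFit2.

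Among the next genes, the log2 difference of Nodal was -1.72 (SE 0.38) for ELA_Vehicle minus Ctrl_Vehicle and 0.12 (SE 0.44) for ELA_SAFit2 minus ELA_Vehicle, and that of Rbpms2 was -0.37 and 0.0028. Tmem68 had -0.30 and 0.0087, and Samd8 had 0.12 and 0.025. Ift22 differed the other way round, with -0.017 for ELA_Vehicle minus Ctrl_Vehicle and -0.13 for ELA_SAFit2 minus ELA_Vehicle.

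Gene lists of 35 functions and cell types were read from the main comparison. Of their 564 members, 551 were tested, none was called by edgeR, and 23 (4.17%) had an unadjusted p under 0.05, against 5.31% of all genes. A count near that share says nothing particular about a list, and the members below are given with their values for that reason.

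The target of the inhibitor and its partners had no called difference. Among 16 genes of FKBP51, steroid receptors and HSP90 chaperones none had an unadjusted p under 0.05, the median log2 difference was -0.0056 and the members lay between -0.074 and 0.082. Fkbp5 was at 47.8 to 111.2 CPM (median 62.5) in Ctrl_Vehicle and at 47.8 to 83.9 CPM (median 62.5) in ELA_SAFit2, with a log2 difference of -0.074 (95% interval -0.25 to 0.10). The highest of these values was that of Ctrl_Vehicle mouse 57, and without this mouse the difference was 0.0016. The glucocorticoid receptor gene Nr3c1 had a log2 difference of -0.047 (95% interval -0.16 to 0.066) and the mineralocorticoid receptor gene Nr3c2 one of 0.034 (-0.064 to 0.13). The smallest p-values of the list belonged to Bag1 (-0.060), Fkbp4 (0.078) and Ppid (-0.039), all co-chaperones.

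Genes that glucocorticoids induce in brain gave the same picture, with 0 of 22 at an unadjusted p under 0.05 and a median of -0.023. Plin4, a lipid droplet gene, had the lowest value of -0.69 (SE 0.37). Its level was 33.8 CPM in Ctrl_Vehicle mouse 57 against a group median of 1.88 CPM, and without this mouse the log2 difference was 0.054. The median of the list was then 0.055. Ddit4, an inhibitor of mTOR signalling, had 0.13 (SE 0.070) and Zbtb16, a transcriptional repressor gene, -0.13 (SE 0.079). Among 11 tested genes of stress neuropeptides and their receptors none had an unadjusted p under 0.05. Crhr1, the main receptor of corticotropin-releasing hormone, had 0.13 (SE 0.073), Crhr2, its relative, -0.27 (SE 0.14) and the vasopressin receptor gene Avpr1a 0.42 (SE 0.22). Ucn, Ucn2, Ucn3, Avp and Oxt were too low to be tested.

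Immediate early genes, which neuronal activity induces within minutes, had a median of -0.061, with 14 of 19 below 0 and 1 at an unadjusted p under 0.05. That was Nr4a2, an orphan nuclear receptor gene, at -0.32 (SE 0.12, unadjusted p = 0.0132), with -0.66 in NoInteraction and 0.051 in SocialInteraction. Egr1 had -0.20 (SE 0.10) and Fosl2 -0.16 (SE 0.079). In the circadian clock list, 2 of 17 genes had an unadjusted p under 0.05. These were Npas2 with -0.28 (SE 0.093, unadjusted p = 0.00539) and Arntl, the gene of the partner of CLOCK, with -0.12 (SE 0.047, unadjusted p = 0.0169). Nr1d1, a repressor of Arntl, had -0.13 (SE 0.064).

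Receptors of the main transmitters were mostly near 0. Medians were -0.025 over 14 GABA receptor genes, -0.024 over 26 genes of glutamate receptors and transporters and -0.040 over 24 monoamine receptor genes, of which 0, 1 and 2 had an unadjusted p under 0.05. Gria3, an AMPA receptor subunit gene, had -0.064 (SE 0.025). The serotonin receptor gene Htr1a was at a median of 35.03 CPM in Ctrl_Vehicle and 42.8 CPM in ELA_SAFit2, a log2 difference of 0.27 (SE 0.10, unadjusted p = 0.0126). The dopamine receptor gene Drd1 had medians of 6.40 and 4.96 CPM, a log2 difference of -0.29 (SE 0.11, unadjusted p = 0.0131). Adra1d, an adrenergic receptor gene, had 0.18 (SE 0.10). Of 16 genes of GABAergic interneurons, Nos1, the neuronal nitric oxide synthase gene, had an unadjusted p under 0.05 with 0.19 (SE 0.081). Medians were -0.029 over 12 genes of perineuronal nets and 0.028 over 18 neuropeptide precursors, with no such gene in either list.

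Markers of the hippocampal fields were read as a check of the punches, and fewer cells of a type and less RNA per cell cannot be told apart in such tissue. All 6 CA1 genes had values below 0, with a median of -0.28 and no unadjusted p under 0.05. The summed CA1 level was 228 to 445 CPM (median 318) in Ctrl_Vehicle and 137 to 465 CPM (median 271) in ELA_SAFit2. Wfs1, an endoplasmic reticulum gene, had -0.27 (SE 0.16) and Mpped1, a phosphodiesterase gene, -0.29 (SE 0.17). All 4 tested genes of the dorsal pole were also below 0 (median -0.28), and Ccn3, a matrix protein gene, had -0.75 (SE 0.32, unadjusted p = 0.025), with -1.47 in NoInteraction and 0.044 in SocialInteraction. The 8 CA3 and CA2 genes had a median of 0.11, with Bok at 0.26 (SE 0.16) and Amigo2 at 0.14 (SE 0.079), and medians were -0.028 over 8 dentate gyrus genes and 0.0047 over 10 ventral pole genes. The summed level of 5 dorsal pole genes had medians of 163.8 CPM in Ctrl_Vehicle and 121 CPM in ELA_SAFit2. That of the 10 ventral pole genes had medians of 262.3 and 254.1 CPM. The part of punch position in these values was not tested.

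Markers of other cell types and of neighbouring tissue had no called member. Medians lay between -0.032 and 0.033 over the lists of mature oligodendrocytes, oligodendrocyte precursors, astrocytes, microglia and endothelial and mural cells. In microglia Cd68, a lysosomal gene, had -0.15 (SE 0.061, unadjusted p = 0.0221), and among endothelial and mural genes the angiopoietin receptor gene Tek had 0.15 (SE 0.072, unadjusted p = 0.0431). All 13 choroid plexus genes were below 0 with a median of -0.41, where the summed level reached 317 CPM in 1 Ctrl_Vehicle mouse against a median of 30.6 CPM, and 157 CPM in ELA_SAFit2 against a median of 29.1 CPM. The 10 fibroblast genes were all above 0 with a median of 0.15. Neither list had a gene at an unadjusted p under 0.05. Among 5 red blood cell genes Hba-a2 had 0.62 (SE 0.30, unadjusted p = 0.0482), with a list median of 0.025. Of 10 genes of the neighbouring cortex and amygdala 3 had an unadjusted p under 0.05, all lower. These were Tbr1 with -0.18 (SE 0.078), Rspo2 with -0.22 (SE 0.10) and Nr4a2, already counted above among the immediate early genes. The summed level of the 10 cortex and amygdala genes had medians of 360.1 CPM in Ctrl_Vehicle and 335.6 CPM in ELA_SAFit2. The 7 thalamus genes had a median log2 difference of 0.043. Their summed level was 64.9 to 337.8 CPM (median 145.1) in Ctrl_Vehicle and 81.36 to 460.6 CPM (median 139.5) in ELA_SAFit2. The part of tissue makeup in the 3 called genes was not tested.

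**Figure D5:**
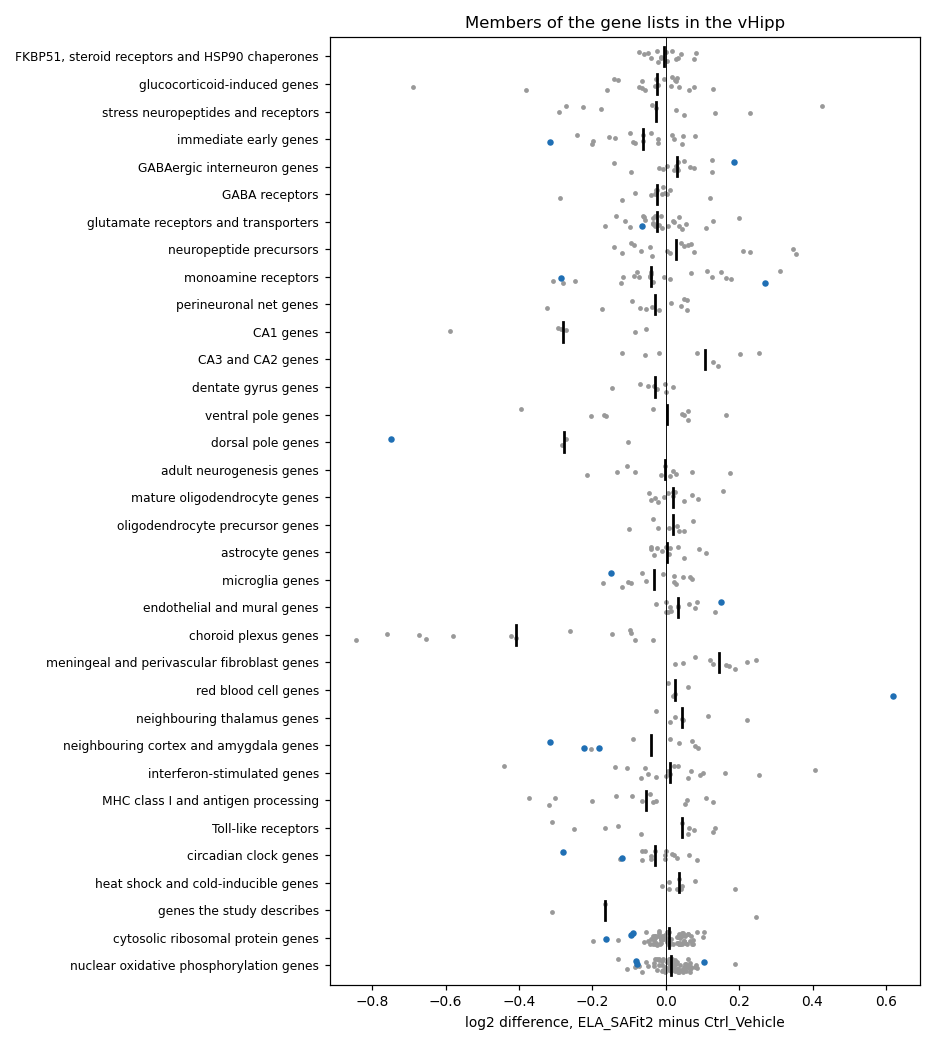
Log2 difference of ELA_SAFit2 minus Ctrl_Vehicle (x axis) of every tested member of 34 gene lists in the vHipp, with a black bar at each list's median and blue points for members at an unadjusted p under 0.05. The list of genes with varying copies is left out because its members reach 4.77. Medians of most lists lie close to 0, and the choroid plexus, CA1 and dorsal pole lists lie farthest below it.

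Larger lists of constitutive functions had medians near 0, with 45 of 78 ribosomal and 55 of 80 oxidative phosphorylation genes above 0. Over all genes 7828 of 15388 were above 0. Of 78 genes of cytosolic ribosomal proteins 3 had an unadjusted p under 0.05, all lower, and the median was 0.010. These were Rps26 (-0.16, SE 0.055), Rpl36al (-0.096, SE 0.037) and Rpl35 (-0.090, SE 0.039), and processed copies elsewhere in the genome make their counts uncertain. Of 80 nuclear genes of oxidative phosphorylation 3 did as well, with Uqcrfs1 at 0.10 (SE 0.043), Ndufa8 at -0.078 (SE 0.033) and Ndufs6 at -0.080 (SE 0.037), and the median was 0.016. Medians were 0.011 over 20 interferon-stimulated genes, -0.054 over 14 genes of MHC class I and antigen processing, 0.044 over 11 Toll-like receptor genes, 0.036 over 9 heat shock and cold-inducible genes and -0.0018 over 11 genes of adult neurogenesis, with no unadjusted p under 0.05.

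Cwc22 and its similar copies stood apart by their spread between mice. Cwc22 was at 22.0 to 30.01 CPM in Ctrl_Vehicle, whereas ELA_SAFit2 mice ranged from 22.8 to 556.7 CPM at a median of 24.6 CPM, and ELA_Vehicle mice reached 629.0 CPM. The log2 difference of Cwc22 was 1.36 (SE 0.55, unadjusted p = 0.0205), that of Gm13691 4.77 (SE 1.42) and that of Gm13697 3.47 (SE 1.17). For each of these 3 genes 2 of 14 ELA_SAFit2 mice lay above every Ctrl_Vehicle mouse. With 1 library left out the value of Gm13691 was between 3.85 and 6.59. None was called by edgeR, and 4 of the 6 genes of this list had an unadjusted p under 0.05, all higher. These copies share reads, so they are not separate measurements.

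The 3 genes that the study describes in several regions had no called difference in this contrast. The study describes Abcb1b and Best1 as lowered by ELA, Tlr1 as raised, and all 3 as restored by SAFit2. A small difference between ELA_SAFit2 and Ctrl_Vehicle is part of that description, which is not tested here. The study chose this list on samples of this series, so it is not independent of these values. Abcb1b, a drug efflux transporter gene of the blood-brain barrier, was at 1.61 to 7.63 CPM (median 4.08) in Ctrl_Vehicle and at 1.21 to 6.37 CPM (median 3.83) in ELA_SAFit2, a log2 difference of -0.16 (SE 0.26). Best1, a chloride channel gene, had a log2 difference of 0.25 (SE 0.32) and Tlr1, a Toll-like receptor gene, one of -0.31 (SE 0.50). The SEs of all 3 were well above the median of 0.052 over all genes.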

How the data were processed

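RNA of bilateral vHipp punches was sequenced by the authors as stranded, poly-A selected libraries. The authors deposited salmon's estimated counts per gene, not scaled to depth or gene length, and the submitters' processing notes list STAR, DESeq2 and the build GRCm39. The counts were rounded (12.1% of the values were not whole). Gene types and positions came from GENCODE M21 (GRCm38), which matched 52073 of 56691 identifiers.

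The filter kept protein-coding genes whose counts summed to 100 or more and were above 0 in 6 libraries or more. They were fitted with edgeR 4.0.16 (R 4.3.3; TMM, quasi-likelihood, Benjamini-Hochberg adjustment over all genes tested) with the set as covariate. Differences between regions used limma 3.58.1 on log2 CPM (prior count 2) within each mouse, since a mouse number marks the same animal in every region. DESeq2 1.42.0 was an alternative. Scripts were tested on simulated data. Totals per library were 23021370 to 33099402 counts.

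Named genes are those called, the next by p up to 12 in all, the 3 smallest p in each list, 6 fixed genes (Fkbp5, Nr3c1, Nr3c2, Abcb1b, Best1, Tlr1), and the 5 smallest p for a difference between sets or regions. A gene that this rule names is not reported here. Others (B230217O12Rik, neighbours on chromosomes 13 and 19, genes called elsewhere) were named after their values were seen. The contrast, lists and tests were chosen with earlier results of these data known. The alternatives tried, all gene types and a block of mouse numbers after seeing the data, were other tools, size factors, filters, gene types, covariates and libraries.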

Additional observations from a re-analysis of the deposited data

Results flagged for a closer look

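In 19 genes (those called, the next by p, the fixed genes and B230217O12Rik) and 6 groups of condition and set, the highest or lowest library was compared with the spread of its group by Dixon's criterion. Of 114 groups 13 had such a library, where chance gives about 1 in 20.

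ELA_SAFit2 mouse 71 was low for Trub1, at 22.1 CPM against 25.3 to 27.5 CPM in the others of its group, and for B230217O12Rik, at 2.04 CPM against 4.51 to 5.97 CPM. Without this mouse the log2 difference of Trub1 was 0.40, and C1rb passed edgeR's threshold (adjusted p = 0.0291). ELA_Vehicle mouse 43 was low for Fhip2a (35.8 CPM against 41.7 to 45.3 CPM), and mouse 99 was high for B230217O12Rik (8.92 CPM against 2.17 to 5.03 CPM).

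Fkbp5 was high in Ctrl_Vehicle mouse 57 (111.2 CPM against 58.2 to 74.6 CPM) and in ELA_SAFit2 mouse 63 (83.9 CPM against 62.4 to 67.5 CPM), both after social interaction. Nr3c1 was low in ELA_Vehicle mouse 59 (61.4 CPM against 84.3 to 95.6 CPM). Mice 57, 59 and 63 belong to the same run of mouse numbers, as described in the closing section. Plin4 was at 33.8 CPM in mouse 57 and 10.2 CPM in mouse 63, and Nr3c1 at 61.1 CPM in mouse 57. Mouse 61, also of this run, had 70.9 CPM of Fkbp5, 85.15 CPM of Nr3c1 and 1.97 CPM of Plin4. Nr3c1 was at 78.8 CPM in mouse 63 and Plin4 at 4.68 CPM in mouse 59. An effect of the run on these genes was not tested. Among the next genes, C1rb was high in ELA_Vehicle mouse 91 (0.771 CPM against at most 0.222 CPM), Tmem68 low in ELA_SAFit2 mouse 31 (23.6 CPM against 29.1 to 32.9 CPM), Ces5a high in ELA_Vehicle mouse 93 (0.999 CPM against 0.461 to 0.672 CPM) and Nudt6 high in ELA_SAFit2 mouse 87 (2.25 CPM against 1.24 to 1.61 CPM). Best1 was low in 1 ELA_SAFit2 mouse after social interaction (0.203 CPM against 0.706 to 1.08 CPM) and Tlr1 high in ELA_SAFit2 mouse 39 (2.04 CPM against 0.122 to 0.454 CPM).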

How the results depend on the processing

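The 3 calls for ELA_SAFit2 minus Ctrl_Vehicle in the vHipp became 6 with DESeq2, 5 with all gene types, 1 (Trub1) with all 41 libraries in the fit, and 0 within NoInteraction (821 genes at an unadjusted p under 0.05) and 0 within SocialInteraction (615), each fitted alone with fewer mice. With 1 library left out there were 2 to 4 calls, with Trub1 and Cmya5 among them each time (adjusted p at most 0.000469 and 0.0141). Trub1 then had log2 differences of 0.36 to 0.40. DESeq2 gave 5 calls for the difference between the sets and 2 for ELA_Vehicle minus Ctrl_Vehicle, against 0 by edgeR. The list members at an unadjusted p under 0.05 numbered 41 of 544 within NoInteraction and 17 to 34 with 1 library left out. The conditions of the main comparison share no mouse number, but each run of 8 numbers holds at most 1 mouse of either condition, of the same set. Within a run the numbers go from Ctrl_Vehicle, through ELA_Vehicle where present, to ELA_SAFit2, the conditions that the paper housed together in a cage. The labels do not say what a run marks. Deviations of the 13 pairs within runs correlated between -0.074 and 0.19, with 2 pairs over 0.1 and 2 Ctrl_Vehicle mice closest to their own run. Such correlations over all genes cannot decide whether the mice of a run belong together. The main fit left the mice unpaired. With runs as a replicate block, an alternative chosen after seeing the data, there were 2 calls, Trub1 (log2 0.39, adjusted p = 0.00436) and Fhip2a (0.16, 0.0414). Cmya5 was then at -0.45 (adjusted p = 0.132) and Col4a3 changed sign (0.057). For the difference between regions, the fit without the replicate block had 0 calls, and so did those with any mouse left out. Signs changed within NoInteraction for Abcb1b (0.10), Best1 (-0.0062), Pbld2 (-0.11), Tgfbr2 (-0.058) and Car3 (0.81), and within SocialInteraction for Tlr1 (0.19), Nr4a2 (0.051), Mpped1 (0.025), Ccn3 (0.046) and Col4a3 (0.76). With 1 library left out they changed for Fkbp5 (-0.10 to 0.0016), Plin4 (-0.90 to 0.054) and Col4a3 (-0.12 to 0.058). The cause was not tested.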
